A study of Mus musculus with 6 samples.

Results

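Actin isoforms and the contractile proteins that work on actin filaments were followed through 10 genes (Acta2, Actb, Actg1, Actg2, Actc1, Tagln, Cnn1, Myl9, Tpm1 and Tpm2) of the 50090 gene names on the array. Every non-control probe carrying one of these names was taken, which gave 18 of 61307 probes, and each was described on its own. The cells were NIH3T3, an immortal line of mouse embryo fibroblasts, in 3 groups with 2 replicates each. GFP cells carried a retroviral vector for green fluorescent protein alone and were the control. LT7 cells (long cells) and ST7 cells (small cells) were labelled as overexpressing SIRT7, a nucleolar deacylase, which was delivered as a fusion with GFP in the same vector. All 3 lines had passed through Geniticin selection and were grown in DMEM with serum. LT7 and ST7 were separated with cloning cylinders from confluent SIRT7 cultures and then cloned from single cells, so each is 1 clone, and the replicates were RNA from different passages. The p-values therefore measure the spread between passages of 1 line and not between independently made lines. The lines differ in shape, and the comparisons ask whether the genes of the actin cytoskeleton differed with it.

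Actin monomers assemble into filaments that give a fibroblast its shape. The cytoplasmic isoforms, beta-actin (Actb) and gamma-actin (Actg1), are made in nearly all cells, whereas alpha smooth muscle actin (Acta2), gamma smooth muscle actin (Actg2) and cardiac alpha-actin (Actc1) are muscle isoforms of which Acta2 is also a mark of contractile fibroblasts. Tropomyosins (Tpm1, Tpm2) run along the filament and control the access of myosin, transgelin (Tagln) and calponin 1 (Cnn1) bind and stabilise filaments, and Myl9 is the regulatory light chain through which myosin II is switched on. Many of these genes are driven by serum response factor (SRF), which binds a motif called the CArG box.

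The probes were 60 bases long, and Acta2 had 3, Tpm1 had 4, Actg1, Tagln and Tpm2 had 2 each, and Actb, Actg2, Actc1, Cnn1 and Myl9 had 1 each. Probes of a gene are numbered by their mean signal over the 6 arrays, with probe 1 the brightest. The gene names and RefSeq transcripts are those of the array, namely NM_007392 for Acta2, NM_007393 for Actb, NM_009609 for Actg1, NM_009610 for Actg2, NM_009608 for Actc1, NM_011526 for Tagln, NM_009922 for Cnn1, NM_172118 for Myl9 and NM_009416 for Tpm2. For Tpm1, probes 1 and 2 were assigned to NM_024427, probe 3 to NM_001164248 and probe 4 to NM_001164255, so its probes can stand for different transcripts. The array files gave no genome position for these probes. The sequences printed here, in lower case, are coding sequence probes of 3 genes whose probes disagreed in ST7 and the probe of Actc1.
Acta2 probe 2: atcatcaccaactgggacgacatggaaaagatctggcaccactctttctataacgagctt
Actc1 probe 1: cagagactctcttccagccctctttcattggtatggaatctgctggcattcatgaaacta
Tagln probe 2: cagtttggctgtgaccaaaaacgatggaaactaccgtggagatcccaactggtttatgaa
Tpm2 probe 2: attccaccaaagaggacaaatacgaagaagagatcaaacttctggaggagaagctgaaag
Another pair is shown because Tpm1 probe 2 and Tpm2 probe 1 share a stretch of the tropomyosin coding sequence, in which 27 of 33 aligned bases (81.8%) were identical. The identical bases are in capitals.
Tpm1 probe 2: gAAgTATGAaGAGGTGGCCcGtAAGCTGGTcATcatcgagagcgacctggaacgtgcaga
Tpm2 probe 1: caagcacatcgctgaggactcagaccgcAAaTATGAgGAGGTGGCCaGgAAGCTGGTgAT
No other pair of the 18 probes was found to share such a stretch. Coding sequence is closely related among all actin genes, and which transcripts each probe bound was not tested.

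The ST7 arrays stood apart from the others. The processed signal is the brightness of a spot after the scanner software had removed the background, and its 75th percentile was between 317 and 384 on the GFP and LT7 arrays but 16.3 and 17.1 on the ST7 arrays. As well above background the software marked between 47.5% and 57.5% of probes on the GFP and LT7 arrays, and 26.4% and 25.8% on the ST7 arrays. The 2 probes of Sirt7 (NM_153056) read between 2142 and 3633 on the GFP and LT7 arrays and between 2.85 and 3.28 on the arrays labelled ST7, not well above background, which goes against the label. In LT7, labelled as overexpressing SIRT7 too, neither probe was called higher than in GFP. Both had a log2 change of 0.29 after the percentile shift described below (adjusted p = 0.47 by limma). Whether these probes can bind the delivered SIRT7 sequence is not given in the sources used here. ST7 therefore means the arrays so labelled. Each array was scaled by subtracting its 75th percentile on the log2 scale. With this shift the median change over the whole array, ST7 against GFP, went from -0.68 to 3.72 on that scale. For this reason signals before scaling stand beside every change after it.

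On the GFP arrays the actin and contractile genes were widely detected, and both arrays marked 17 of the 18 probes as well above background, the exception being Tpm1 probe 4 on 1 array. LT7 had the same 17. In ST7, 10 probes were well above background on both arrays, Myl9 on 1 array, and 7 on neither. Of the 32131 probes detected in this way on both GFP arrays, 40.1% remained so throughout ST7 and 52.9% were lost from both replicates. By mean signal before scaling, ST7 was lowest for 17 probes and GFP for 1 (Actb), while LT7 was highest for 11 and GFP for 7.

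**Figure D1:**
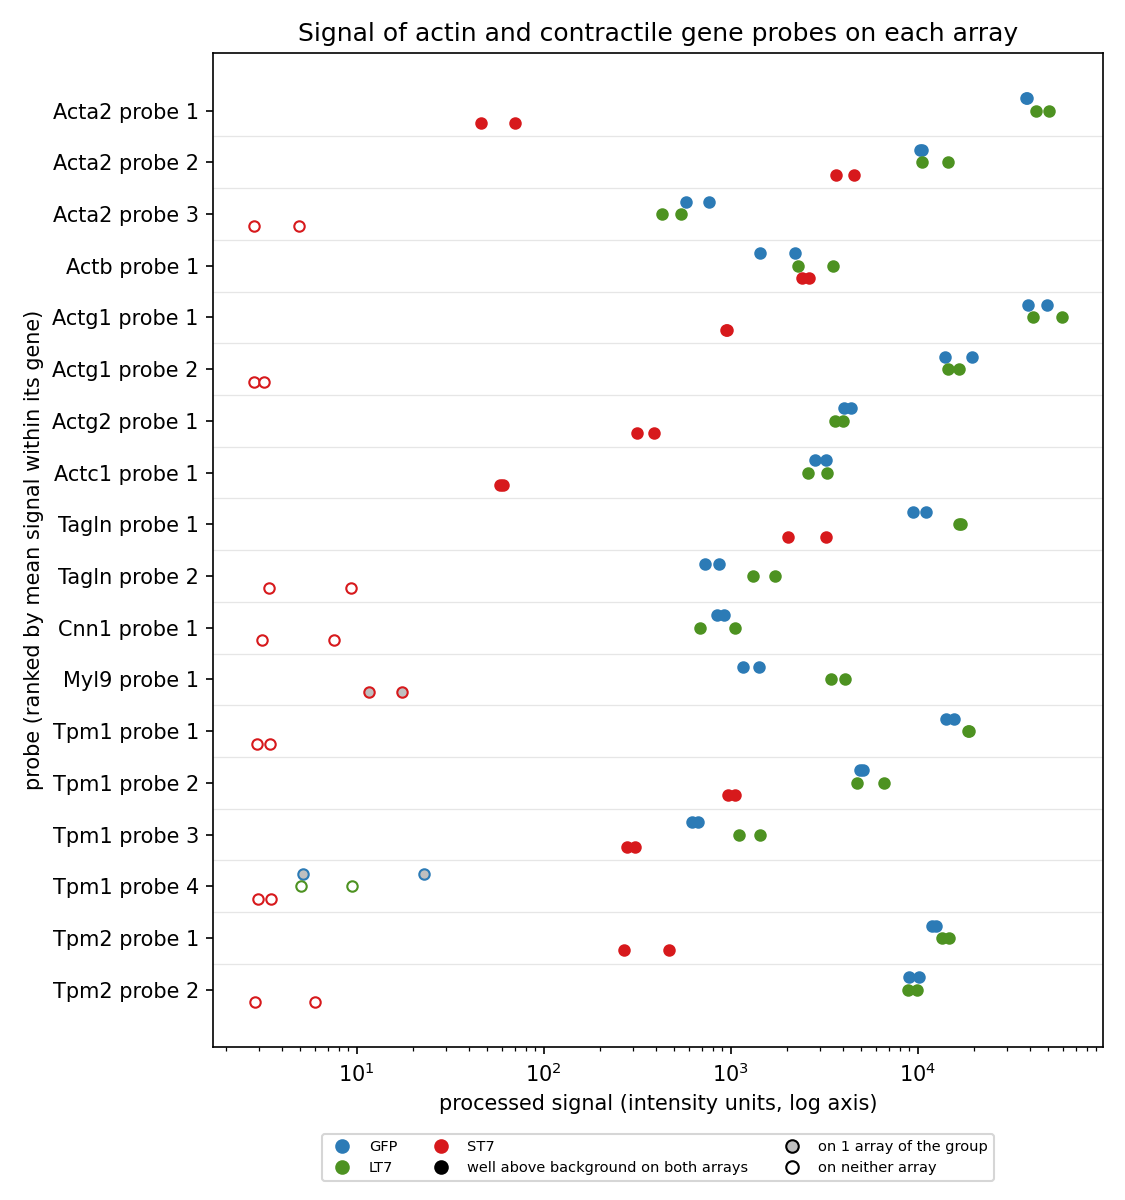
Processed signal (log axis) of each of the 18 probes on the 2 GFP, 2 LT7 and 2 ST7 arrays, with filled points where both arrays of a group were well above background, grey where 1 was and open where neither was. GFP and LT7 points lie close together, while the ST7 points lie to the left of them for every probe but Actb.

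The probes of the cytoplasmic actins behaved unlike each other in ST7. Actb had 1 probe, and the 2 Actg1 probes differed between themselves, so a difference between isoforms cannot be told from one between probes. Values are given for replicates 1 and 2 in this order. The Actb probe read 2209 and 1427 (GFP), 3521 and 2283 (LT7) and 2420.1 and 2612 (ST7). Both ST7 arrays and both LT7 arrays lay above the GFP arrays, and ST7 and LT7 overlapped. After the shift Actb was 29.9-fold higher in ST7 than in GFP, with a log2 change of 4.90 (SE 0.27, adjusted p = 2.5e-05) by limma. The call was lost without scaling, where the change was 0.50 (SE 0.33, adjusted p = 0.32), and with scaling on spike-in RNAs, where it was 0.67 (SE 1.76, adjusted p = 0.999). That last SE rests on the spread within all 3 groups, LT7 included. The mean log2 spike-in signal was 12.30 on LT7 replicate 1 and between 8.01 and 8.28 on the other arrays. In LT7 the log2 change of Actb was 0.77 (SE 0.27, adjusted p = 0.14), which did not pass the test.

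Actg1 probe 1 read 49244 and 39074 (GFP), 59211 and 41255 (LT7) and 952 and 939 (ST7), and was saturated on LT7 replicate 1. Actg1 probe 2 read 19558 and 14086 (GFP), 14592 and 16671 (LT7) and 2.82 and 3.21 (ST7), which was not well above background. GFP and LT7 overlapped for both probes, and both ST7 arrays were lower. Actg1 probe 1 fell in ST7 (log2 change -1.14 (SE 0.23, adjusted p = 0.0048)), 2.20-fold after the shift, while its mean signal before scaling was 46.7 times lower. Actg1 probe 2 fell by 8.03 on the log2 scale (SE 0.22, adjusted p = 1.7e-05), at least 58.3-fold. Here "at least" compares the GFP mean with a floor, which on each ST7 array was the probe's own value or, if higher, the weakest signal that the software still marked as well above background.

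Of the muscle isoforms, Acta2 had 3 probes, which changed by different amounts in ST7. Acta2 probe 1 read 38439 and 38047 (GFP), 50534 and 43184 (LT7) and 46.0 and 70.5 (ST7). Both ST7 arrays remained well above background, but the mean signal was 657 times lower than in GFP. After the shift the log2 change was -4.99 (SE 0.26, adjusted p = 2.0e-05), a 31.8-fold fall. Acta2 probe 3 read 768 and 579 (GFP), 428 and 544 (LT7) and 2.83 and 4.91 (ST7), the last pair not well above background, and fell at least 2.34-fold (log2 change -3.08 (SE 0.33, adjusted p = 3.2e-04)). Acta2 probe 2, the coding probe printed above, stood apart from these. It read 10330.1 and 10567 (GFP), 14575 and 10519.6 (LT7) and 3677 and 4569.6 (ST7), a mean signal only 2.53 times lower than in GFP. After the shift it was 8.28-fold higher in ST7 (log2 change 3.05 (SE 0.25, adjusted p = 1.0e-04)), and this direction turned to -1.35 without scaling and to -1.18 with scaling on spike-in RNAs. In LT7 the log2 changes of probes 1, 2 and 3 were 0.39, 0.34 and -0.37, with adjusted p of 0.44, 0.46 and 0.56, so that none passed.

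Actg2, which is typical of visceral smooth muscle, read 4047 and 4391 (GFP), 3596 and 4009 (LT7) and 316 and 388 (ST7). Its mean signal in ST7 was 12.0 times lower than in GFP with no overlap, yet the change after the shift was 0.81 (SE 0.24, adjusted p = 0.022) on the log2 scale, in the other direction. The change was -3.59 without scaling, -1.14 when the percentile was taken over those probes alone that every array detected, -3.42 with scaling on spike-in RNAs and -0.95 with normexp background correction. The call after the shift was also lost without GFP replicate 1 (adjusted p = 0.084), ST7 replicate 1 (0.050) or ST7 replicate 2 (0.11), so no direction is given for Actg2. Actc1, the main actin of heart muscle, read 3217 and 2815 (GFP), 2586 and 3263 (LT7) and 60.3 and 58.4 (ST7). It fell 2.40-fold after the shift (log2 change -1.26 (SE 0.23, adjusted p = 0.0033)), and its mean signal before scaling was 50.8 times lower. In LT7 the log2 changes of Actg2 and Actc1 were -0.05 and 0.05 (adjusted p = 0.93 and 0.94).

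The 4 probes of Tpm1 split in ST7. Tpm1 probe 1 read 15607 and 14262 (GFP), 18853 and 18485 (LT7) and 2.95 and 3.43 (ST7), the last pair not well above background. It fell at least 52.4-fold (log2 change -7.80 (SE 0.20, adjusted p = 1.7e-05)). Tpm1 probe 2, assigned to the same transcript, read 4936 and 5099 (GFP), 4767 and 6583 (LT7) and 970.2 and 1058 (ST7). It stayed well above background, with a mean signal 4.95 times lower than in GFP. Tpm1 probe 3, assigned to another transcript, read 667 and 623 (GFP), 1427 and 1109 (LT7) and 278 and 307 (ST7), 2.20 times lower in the mean. After the shift the log2 changes of probes 2 and 3 were 2.09 (SE 0.27, adjusted p = 7.6e-04) and 3.26 (SE 0.21, adjusted p = 4.1e-05), but without scaling they were -2.31 and -1.14. Tpm1 probe 4 read 22.9 and 5.20 (GFP), 9.47 and 5.05 (LT7) and 2.97 and 3.47 (ST7), and was well above background on GFP replicate 1 alone. Its log2 change after the shift of 2.63 (adjusted p = 0.012) turned to -1.76 without scaling and has no fold, since ST7 was not well above background.

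Tpm2 showed the same kind of split with its 2 probes. Tpm2 probe 1 read 11983 and 12613 (GFP), 13423 and 14787 (LT7) and 470.1 and 270.5 (ST7). Tpm2 probe 2 read 8973 and 10179 (GFP), 8920.0 and 9905 (LT7) and 2.85 and 6.01 (ST7), not well above background. Both were lower in signal on both ST7 arrays than on any other array. Probe 2 fell at least 33.6-fold after the shift (log2 change -6.77 (SE 0.39, adjusted p = 2.9e-05)). Probe 1, whose mean signal was 33.2 times lower before scaling, was the 1 probe of the 18 that missed the test in ST7 after the shift, at -0.71 (SE 0.35, adjusted p = 0.1), and it was -0.27 (adjusted p = 0.47) without ST7 replicate 2. It passed without ST7 replicate 1, at -1.14 (adjusted p = 0.023), without scaling, at -5.11 (adjusted p = 1.1e-04), and with the other percentile, quantile normalization, scaling on spike-in RNAs and normexp background correction, between -4.94 and -1.05.

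Transgelin and calponin 1 belong to the same protein family. Tagln probe 1 read 9414 and 11141 (GFP), 17052 and 16692 (LT7) and 2019 and 3225 (ST7). Tagln probe 2 read 862 and 731 (GFP), 1314 and 1729 (LT7) and 9.33 and 3.38 (ST7), the last not well above background. For both probes LT7 was the highest group and ST7 the lowest, with no overlap between groups. In LT7 the log2 changes were 0.82 (SE 0.30, adjusted p = 0.16) and 1.02 (SE 0.53, adjusted p = 0.31), 1.76-fold and 2.03-fold, and neither passed the test. In ST7 probe 2 fell at least 2.79-fold (log2 change -2.74 (SE 0.53, adjusted p = 0.0041)). Probe 1 was 3.92 times lower in signal but 5.26-fold higher after the shift (log2 change 2.39 (SE 0.30, adjusted p = 6.9e-04)), which became -2.0 without scaling. Cnn1 read 848 and 916 (GFP), 682 and 1051 (LT7) and 7.53 and 3.13 (ST7). It was the gene of the 10 with no probe well above background on either ST7 array and fell at least 3.09-fold (log2 change -3.10 (SE 0.52, adjusted p = 0.0022)), while in LT7 its values lay on both sides of GFP.

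Myl9 had the largest log2 change of the 18 probes in LT7. It read 1424 and 1171 (GFP), 3445 and 4094 (LT7) and 11.6 and 17.5 (ST7). The LT7 arrays lay above both GFP arrays, and ST7 lay far below, where replicate 1 was not well above background and replicate 2 was. The log2 change in LT7 was 1.64 (SE 0.27, adjusted p = 0.1) or 3.11-fold, and it did not pass limma's test. With normexp background correction it passed, at 1.48 (adjusted p = 0.020), and with scaling on spike-in RNAs it was -0.53. In ST7 Myl9 fell 4.30-fold after the shift (log2 change -2.10 (SE 0.27, adjusted p = 6.9e-04)), from a mean signal that was 89.3 times lower.

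In LT7 as a whole, no probe of the 18 passed limma's test against GFP at an adjusted p under 0.05, 4 had an unadjusted p under 0.05 (Myl9, Tpm1 probe 3, Actb and Tagln probe 1, all above 0) against 27.2% of the array at that level, and 0.176% of the array was called, 0.044% higher and 0.132% lower. The log2 changes ran from -0.56 to 1.64 with a median of 0.28, against a median of 0.17 over all probes, and 15 of the 18 were above 0. With scaling on spike-in RNAs all 18 were below 0, and the median over all probes was then -2.0. The mean log2 signal of the spike-in RNAs was 12.30 on LT7 replicate 1 and between 8.01 and 8.28 on the other arrays. Before scaling, the groups did not overlap for 10 probes, against 53.9% of the array, with 8 higher in LT7 than in GFP (33.1% of the array) and 2 lower, Acta2 probe 3 and Actg2 (20.8%).

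A fold rule without an error term asked that both replicates differ from the GFP mean by at least 0.8 in log2, and their mean by over 1. By it 2 of the 18 probes were up in LT7, Myl9 and Tpm1 probe 3, and none was down, against 5.9% of the array, 2.89% up and 3.02% down. The change of Tpm1 probe 3 was 1.06 (SE 0.21, adjusted p = 0.1) in log2, 2.09-fold, and its call by limma was gained with normexp background correction (adjusted p = 0.035). The fold rule called 1 probe without GFP replicate 1, 4 without GFP replicate 2 and 3 without LT7 replicate 2. LT7 replicate 1 was read in a scan of its own, and among the arrays of the other scan the log2 change was 1.81 for Myl9, 0.93 for Tpm1 probe 3, 0.85 and 1.27 for Tagln probes 1 and 2 and 0.51 for Actb.

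**Figure D2:**
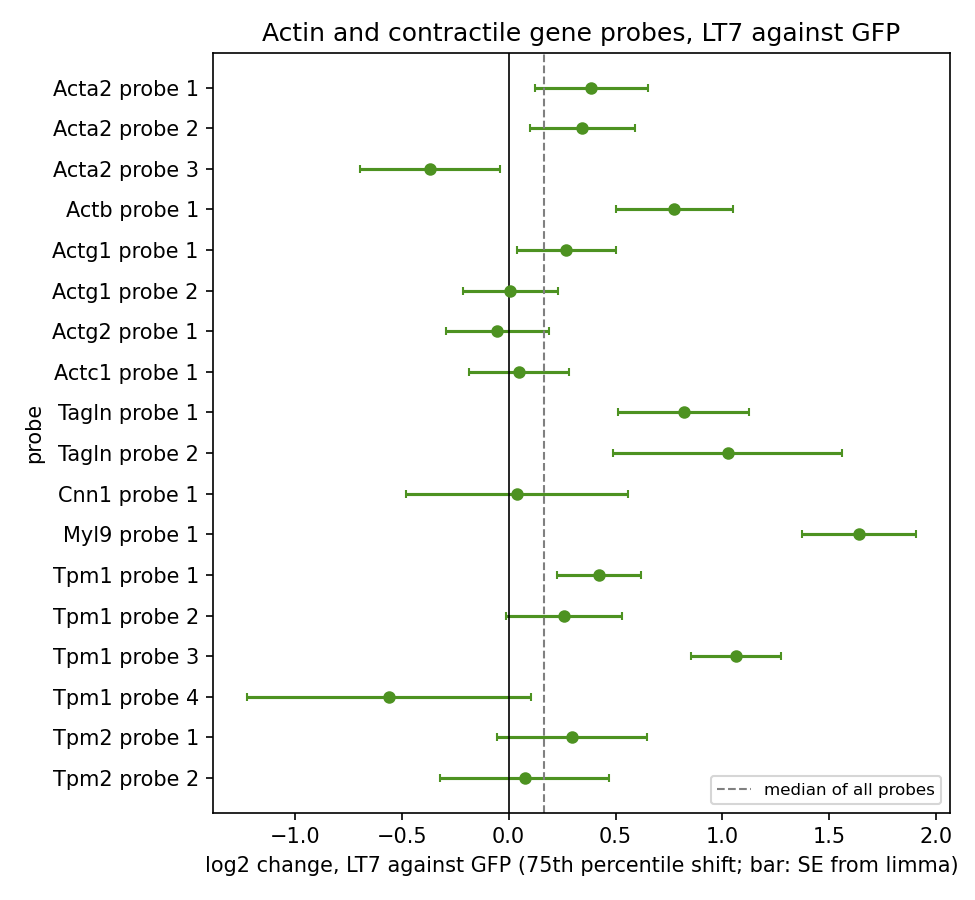
Log2 change of each probe in LT7 against GFP after the percentile shift, with bars for limma's standard error (2 arrays per group) and a dashed line at the median of all probes, 0.17. Myl9 (1.64) and Tpm1 probe 3 (1.06) lie farthest to the right, and no probe passed the test.

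In ST7 both the direction and the size of the change depended on the probe and on the scaling. After the shift 17 of the 18 probes passed limma's test against GFP, 7 higher and 10 lower, while 90.6% of all probes passed, 70.7% higher and 19.8% lower. The median log2 change was -1.20, against 3.72 over all probes, and 1 probe of the 18 (Actb) lay above the median of all probes. The values over all probes include dim probes. With a filter that left these out, 6 of 17 probes of the 10 genes were called higher and 10 lower. Of the 33305 probes that passed this filter, 15707 were called higher and 12161 lower. Before scaling 17 of the 18 were lower in ST7 than in GFP without overlap, against 51.2% of the array and 83.8% of what was well above background on both GFP arrays, and 1 was higher (23.7% of the array). The arrays measure RNA from many cells together, so fewer cells holding a transcript and less of it per cell cannot be told apart.

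The 10 probes called lower in ST7 kept the call under each of 14 alternatives (another scaling, background correction, filter or fit, or 1 array left out), with adjusted p up to 0.037. They were Acta2 probes 1 and 3, both Actg1 probes, Actc1, Tagln probe 2, Cnn1, Myl9, Tpm1 probe 1 and Tpm2 probe 2. Of the 7 called higher, none kept the call under every alternative. Acta2 probe 2, Actg2, Tagln probe 1 and Tpm1 probes 2, 3 and 4 turned below 0 without scaling and with scaling on spike-in RNAs, and only Actb stayed above 0 throughout. By the fold rule 6 probes were up and 10 down in ST7, against 89.7% of the array, 70.7% up and 19% down. After the filter on dim probes the fold rule had 5 of 17 up and 10 down. Of the 33305 probes left on the array, 15427 were then up and 11656 down.

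**Figure D3:**
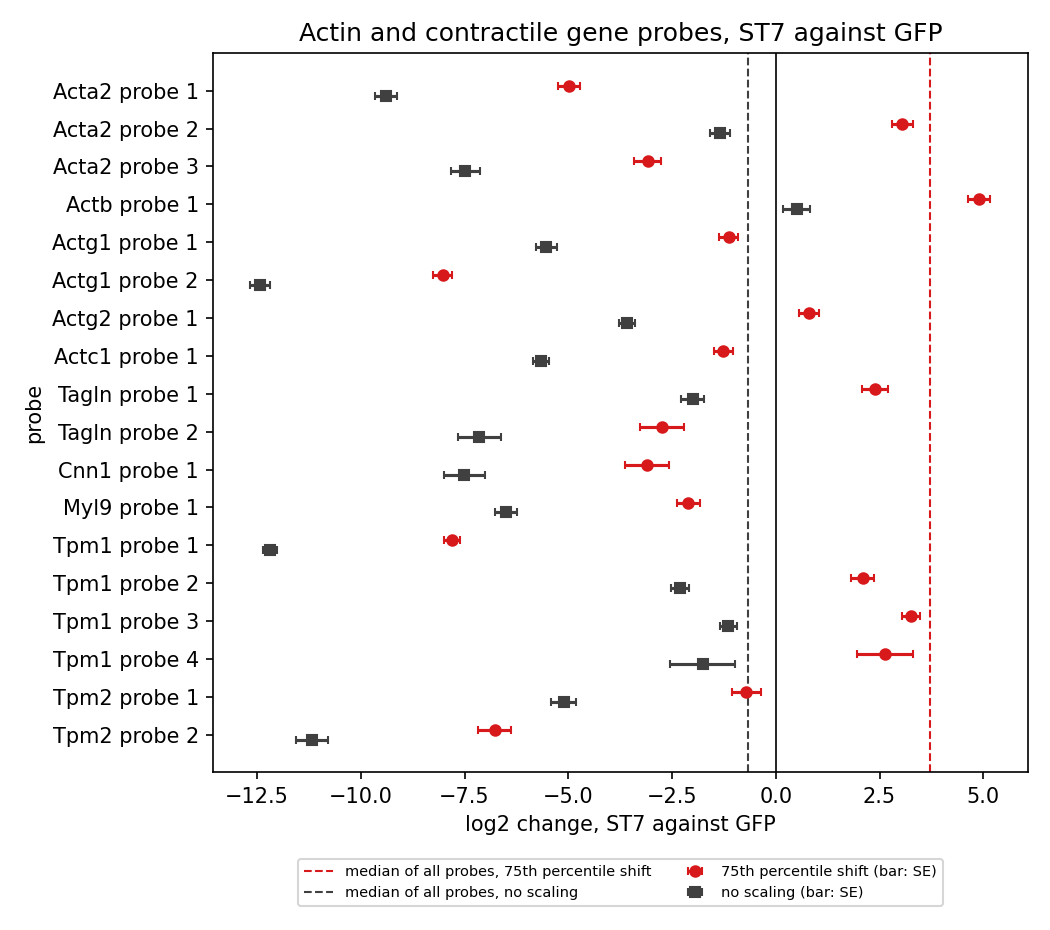
Log2 change of each probe in ST7 against GFP after the percentile shift (red circles) and without scaling (grey squares), with bars for limma's standard error and dashed lines at the median of all probes (3.72 and -0.68). In both settings every probe but Actb lies to the left of its median line. Over probes well above background on both GFP arrays the median after the shift was 0.52, which is not drawn.

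Against LT7, all 18 probes passed limma's test in ST7, 7 higher and 11 lower, where 90.7% of all probes passed, 71% higher and 19.7% lower. After the filter on dim probes 6 of 17 were higher and 11 lower. Of the 33305 probes left on the array, 16227 were then higher and 12067 lower. This comparison uses the same ST7 arrays as the one against GFP. Before scaling 17 probes were lower in ST7 without overlap, and Actb overlapped. The share of all probes was not computed for this comparison. Against GFP it was 51.2% of the array, and 83.8% of what was well above background on both GFP arrays. Myl9 differed 13.4-fold between LT7 and ST7 (log2 change -3.74 (SE 0.27, adjusted p = 6.6e-05)), and Tagln probe 2 differed at least 5.67-fold (log2 change -3.77 (SE 0.53, adjusted p = 0.0011)).

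Scaling cancels in the ratio of 2 probes on the same array, and the ratio is given here on the log2 scale. Acta2 probe 1 over probe 2 was 1.90 and 1.85 (GFP), 1.79 and 2.04 (LT7) and -6.32 and -6.02 (ST7). The ratio fell 264-fold in ST7, and both probes were well above background on all 6 arrays. In the other pairs 1 probe was not well above background in ST7, and the ratio there is a bound with that probe set to the floor described for Actg1. Tpm1 probe 1 over probe 2 was 1.66 and 1.48 (GFP), 1.98 and 1.49 (LT7) and at most -6.37 and -6.09 (ST7), a fall of at least 223-fold. The pairs of Actg1, Tagln and Tpm2 moved the other way, and in these probe 1 was the one that stayed above background. Actg1 probe 1 over probe 2 was 1.33 and 1.47 (GFP), 2.02 and 1.31 (LT7) and at least 6.34 and 5.92 (ST7). For Tagln the ratio was 3.45 and 3.93 (GFP), 3.70 and 3.27 (LT7) and at least 7.43 and 7.70 (ST7). For Tpm2 it was 0.42 and 0.31 (GFP), 0.59 and 0.58 (LT7) and at least 5.33 and 4.12 (ST7). For each of these pairs the GFP and LT7 ratios differed by less than 1 on the log2 scale, and both ST7 arrays lay outside their range. With 2 arrays against 2, an exact permutation test of such a ratio could not pass the threshold and none was run.

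**Figure D4:**
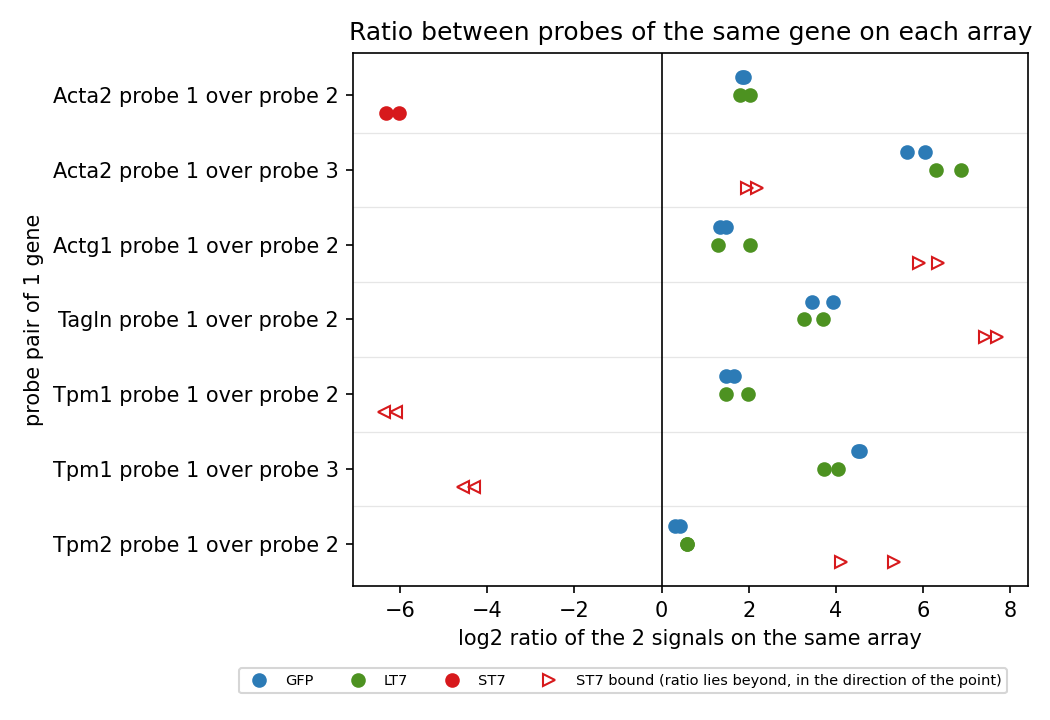
Log2 ratio of 2 probes of the same gene on each array, for the 7 pairs with probe 1 of which at least 1 probe was detected in ST7, coloured by group, with open triangles where the ST7 ratio is only a bound. The ST7 ratios lie outside the range of GFP and LT7 in every row but Acta2 probe 1 over probe 3, whose bound leaves this undecided, and are at -6.32 and -6.02 for Acta2 probe 1 over probe 2 against 1.90 and 1.85 in GFP.

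All 5 genes with more than 1 probe had a probe that both ST7 arrays marked as well above background and another that neither did. Among all 5399 genes with more than 1 probe well above background on both GFP arrays, 1849 (34.2%) had such a split. Over the probes well above background in GFP, the range of the log2 change in ST7 was 8.04 for Acta2, and for the other 4 genes it has only a bound. Over all 5399 genes the range in ST7 had a median of 2.85 and a 90th percentile of 7.97, with dim ST7 probes at their own values. In LT7 the range within a gene was between 0.21 and 0.81 for these 5 genes, with a median of 0.25 over all. For these genes no single size of the change in ST7 can be given, though both Actg1 probes were called lower under every alternative.

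Promoters were examined because the CArG box is shared by many contractile genes. RefSeq sequence of the GRCm38.p6 build was taken from 250 bases before to 50 after the start given with each promoter. It was matched by symbol for Acta2, Actg1, Actc1, Cnn1, Myl9, Tpm1 and Tpm2, and not for Actb, Actg2 and Tagln. That start need not be the start of the array's RefSeq transcript. The Tpm1 window (chr9:67049164-67049463, - strand) lay inside its transcript (67022590 to 67049672). The Acta2 window (chr19:34255324-34255623, - strand) lay mostly inside its own (34240336 to 34255585). The box was searched on both strands, on which it reads alike. Actg1, Actc1 and Myl9 held 1 box each, and 3 of 7 compares with 535 of all 32851 promoters (1.63%). The 40 bases around each box are shown because these 3 promoters belong to genes that fell in ST7, with the box in capitals.
Actg1, chr11:120348561-120348600, - strand: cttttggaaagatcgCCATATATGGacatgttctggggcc
Actc1, chr2:114052898-114052937, - strand: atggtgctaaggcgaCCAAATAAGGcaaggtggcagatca
Myl9, chr2:156775288-156775327, + strand: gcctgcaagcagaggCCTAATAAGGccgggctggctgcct
Counted from the start given with the promoter, the box lay 90 to 81 bases before it for Actg1, 47 to 38 for Actc1 and 161 to 152 for Myl9. The RefSeq transcript of Myl9 starts at 156775408, inside the window examined (156775214 to 156775513), so its box lies closer to that start. Acta2, Cnn1, Tpm1 and Tpm2 did not have these letters in the window examined. In LT7 the 3 genes with the box had log2 changes of 0.27 and 0.0087 (Actg1 probes 1 and 2), 0.05 (Actc1) and 1.64 (Myl9). In ST7 probes of Cnn1 and Tpm2, whose windows did not have these letters, fell as well. Probes of Acta2 and Tpm1 also fell. The Tpm1 window held none of the sequence before its transcript's start (67049672), and the Acta2 window little of it (start 34255585). Whether a box lies in the rest of that sequence was not tested.

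The genes whose values most resembled those of Acta2 probe 1 over the 6 arrays were Tmem219, Gtlf3b, Cdk4, Ecm1 and Tgfb3. They had the smallest root mean square difference of centred log2 values, from 0.078 to 0.118, among the brightest probes of 19771 genes well above background on both GFP arrays. Tgfb3, a growth factor, read 4984 and 4334 (GFP), 5285 and 5623 (LT7) and 5.18 and 8.86 (ST7). Ecm1, a matrix protein, read 11718 and 11727 (GFP), 16379.6 and 15995 (LT7) and 17.1 and 24.7 (ST7). None of the 5 is an actin gene, and their likeness rests mainly on the ST7 arrays, where Ecm1 alone was well above background and the values of the other 4 are not well above it.

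The surrounding system was described with 9 lists of 96 genes, of which 94 were on the array, each by its brightest probe. In LT7 limma called none of the 94, with 13 at an unadjusted p under 0.05 (27.2% of the array), and the median log2 change was 0.14 against 0.17 over all probes. In ST7 45 were called higher and 45 lower after the shift, where 70.7% of all probes were called higher and 19.8% lower. The same shares stand beside the counts of single lists below. The median log2 change was 0.01, against 3.72 over all probes and 0.52 over probes detected on both GFP arrays. The shares over all probes, here and beside the single lists, include dim probes. With a filter that left these out, 38 of 87 list genes were called higher and 45 lower. Of the 33305 probes that passed this filter, 15707 were called higher and 12161 lower. Both GFP arrays detected 86 of the 94 genes as well above background. Of these, both ST7 arrays detected 45 and neither detected 41, against 40.1% and 52.9% of all probes so detected in GFP. Of the 6 relatives of the tropomyosins, calponins and transgelins 5 were not well above background in ST7, against 52.9% of the probes detected in GFP. Tpm4 read 28501 and 28831 (GFP), 25980.0 and 27354 (LT7) and 2.90 and 3.13 (ST7), at least 101-fold lower than in GFP, and Cnn3 was at least 33.2-fold lower.

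Among 10 smooth muscle genes 4 fell and 6 were called higher, Csrp2 at least 66.5-fold lower and Cald1 (caldesmon) at least 5.14-fold lower. Of the 9 SRF genes 5 fell and 3 were called higher, among them Srf itself, at 3567 in ST7 against 6227 in GFP by mean signal and 12.2-fold higher after the shift. Those that fell included the SRF coactivator Mkl1, at least 32.5-fold, and Ctgf, at least 46.4-fold. Of 16 stress fibre and focal adhesion genes 9 fell and 6 were called higher. Actn1, which bundles filaments, read 775 and 660.5 (GFP), 888 and 734 (LT7) and 2399 and 2345 (ST7), and was 69.9-fold higher after the shift. With scaling on spike-in RNAs its log2 change was 1.90 (SE 1.76), and the call was lost under the wide SE described for Actb. Skeletal alpha-actin (Acta1), the actin gene outside the 10, read 713 and 635 (GFP), 556 and 776 (LT7) and 1017 and 932 (ST7), and its call as higher was lost without scaling and with scaling on spike-in RNAs. Of 14 genes for monomer binding, severing and capping 6 fell and 8 were called higher, with Gsn (gelsolin) at least 220.3-fold lower and Tmsb10 at 10992 in ST7 against 2859 in GFP by mean signal. Of 16 nucleator genes 7 fell and 8 were called higher, and 2 subunits of the same complex, Arpc1b and Arpc2, differed in direction, at 62988 and 4885 in GFP against 3.03 and 10678 in ST7. Of 11 myosin II genes 3 fell and 7 were called higher, and of 11 cortical linkers 6 fell and 5 were called higher, of which 4 (Pls1, Lcp1, Vil1 and Espn) were not well above background on any GFP or ST7 array. Of all 45 list genes called higher, 11 were not well above background in ST7. Of the 33 genes picked from the lists by size of change, 25 were lower under all 14 alternatives and kept the call, and none of the others kept a call as higher under all. Of those others 5 stayed above 0 under every setting (Acta1, Ppp1r12a, Actn1, Tmsb10 and Arpc2). Tmsb10, Actn1 and Arpc2 lost the call only with scaling on spike-in RNAs, under its wide SE. Their lowest log2 changes over the settings were 1.94, 1.73 and 1.13.

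**Figure D5:**
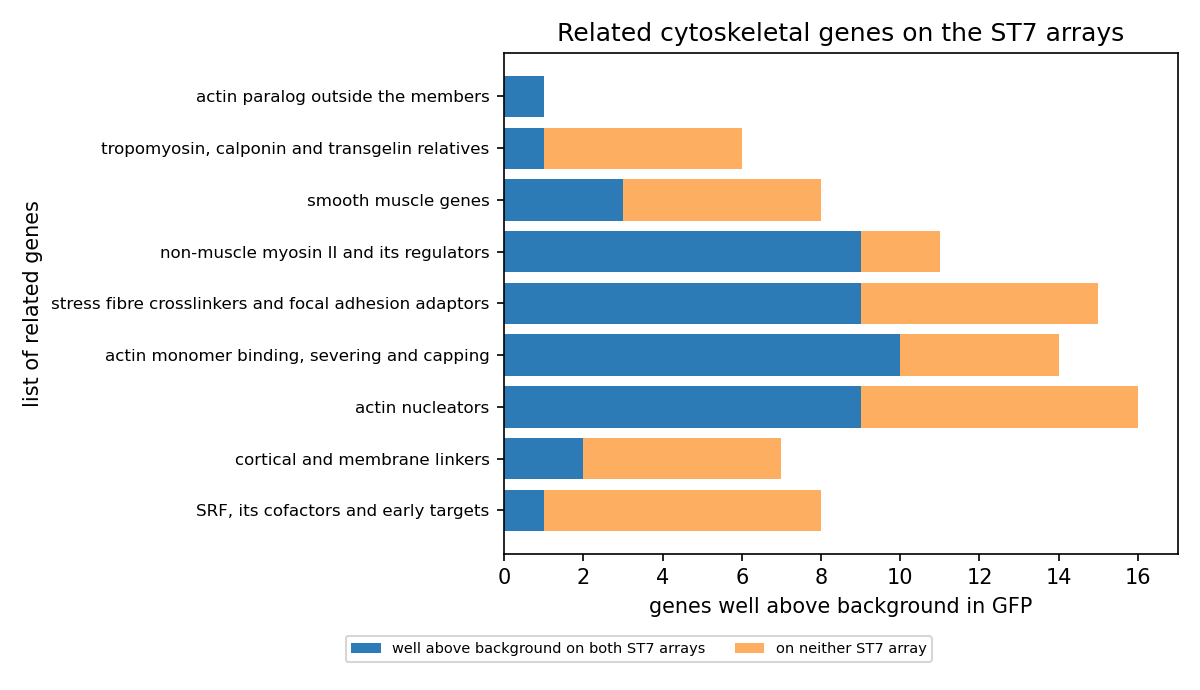
Number of genes of each list, by brightest probe, that were well above background on both GFP arrays, divided into those well above background on both ST7 arrays (blue) and on neither (orange). The relatives of tropomyosin, calponin and transgelin (1 blue, 5 orange) and the SRF genes (1 blue, 7 orange) held the fewest genes still detected among the lists of more than 1 gene.

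Cell type markers were read on the same arrays. GFP and LT7 detected all 10 fibroblast markers above background and ST7 detected 4. Of all probes detected on both GFP arrays, 40.1% stayed so on both ST7 arrays. The summed signal of the 10 was 15064 to 16601 in ST7, mostly Vim (14612 and 16192), against 382357 to 392039 in GFP. All sums here are of signals before scaling. The 75th percentile of the array was 16.3 and 17.1 in ST7 against 384 and 323 in GFP, so the whole array was dimmer in ST7 as well. The summed signal of 8 epithelial markers was 2021 to 2215 in ST7, mostly Krt18, and 115 to 194 in GFP. Cdh1 was not well above background in any group. Epcam (86.7 and 94.0) and Dsp (178 and 104) were also higher in ST7 than in GFP. Krt8 went the other way, at 15.3 and 5.82 in ST7 against 123 and 62.2 in GFP. Cldn3 differed little (44.5 and 39.1 in ST7, 38.7 and 32.3 in GFP). Neither ST7 array detected Krt19 or Ocln as well above background. For 8 striated muscle markers the sum was 245 to 418 in ST7, 116 to 164 in LT7 and 157 to 259 in GFP, of which Myh3, at 324 and 169 in ST7 and 4.91 and 7.95 in GFP, made up most in ST7. Ckm (36.1 and 39.4) and Tnni1 (31.5 and 17.1) were also well above background on both ST7 arrays, while Myod1, Myog, Des, Tnnt2 and Myh7 were not. The 4 endothelial markers were not well above background on any array, and 4 blood markers summed to 86.7 to 91.8 in ST7 and 135 to 179 in GFP. Their part in the change of the actin and contractile genes was not tested.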

How the data were processed

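RNA of 6 samples was labelled with Cy3 after oligo-dT priming and hybridised to 1-colour Agilent mouse arrays on 1 slide, with LT7 replicate 1 read in a separate scan. The authors deposited Feature Extraction (version 10.5.1.1) output, in which the processed intensity is the spot signal after background subtraction, and a table of log2 values after a 75th percentile shift. Control probes and outlier spots were left out, spots of a probe were averaged, and log2 of the processed intensity minus the 75th percentile of each array was tested with limma 3.58.1 (R 4.3.3) on all 6 arrays, two-sided, with Benjamini-Hochberg adjustment over all 61307 probes and a threshold of 0.05. No probe was removed for low signal. The limma step was checked on simulated data. Alternatives were no scaling, another percentile, quantile normalization, scaling on 4 spike-in RNAs, normexp (offset 50), the deposited log2 values, a filter on dim probes, a replicate block and leaving out each array. The fit of the 4 GFP and LT7 arrays alone was chosen after seeing the data. After removal of a constant offset between -0.025 and 0.0011, between 5 and 13 probes per array differed from the deposited log2 values by more than 0.01.

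Every probe of the 10 genes is reported. From each list of related genes at most 4 were picked, by absolute log2 change among genes called by limma on their brightest probe, which also had to be well above background throughout the brighter group. The members and the lists were chosen with earlier results of these data known. Lists were counted by brightest probe, with no set test. Promoter sequences came from RefSeq (GRCm38.p6). The probe sequence of Actg2 is not reported here. The number of arrays limits the precision.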

Additional observations from a re-analysis of the deposited data

How the results depend on the processing

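Calls of the 18 probes held or changed as follows. In LT7 against GFP no probe was called under any alternative but normexp background correction, which called 2 (Myl9 and Tpm1 probe 3, both higher), and 4 genes of the lists were called with normexp, 1 with the filter on dim probes and between 0 and 1 leaving out 1 array. In ST7 against GFP 17 probes were called and with spike-in scaling 11 (16 to 17 leaving out 1 array), and 90 genes of the lists against 47 (84 to 90). In ST7 against LT7 18 probes became 8 (16 to 18), and 86 genes of the lists became 39 (86 to 88). By the fold rule the 2 probes called in LT7 became 1 without scaling, with quantile normalization, with spike-in scaling (there a lower one) and with normexp, and 1 to 4 leaving out 1 array. In ST7 the 16 became 16 to 17 leaving out 1 array.

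Directions in ST7 against GFP turned for probes and genes above 0 after the shift. Without scaling the log2 change was -1.35 for Acta2 probe 2, -3.59 for Actg2, -2.0 for Tagln probe 1, -2.31, -1.14 and -1.76 for Tpm1 probes 2, 3 and 4, -0.74 for Lmod1, -1.12 for Myh14 and -1.10 for Rock1. With spike-in scaling the same were -1.18, -3.42, -1.83, -2.14, -0.97, -1.59, -0.57, -0.95 and -0.93. Actg2 was also at -1.14 with the other percentile and -0.95 with normexp. Their signals before scaling were lower in ST7.

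Over all probes, limma called 108 in LT7 and 59 without scaling, 69 with the other percentile, 5 with quantile normalization, 3 with spike-in scaling, 438 with normexp, 264 after the filter on dim probes, 14 on the 4 GFP and LT7 arrays and 0 to 697 leaving out 1 array. The fold rule called 3620 in LT7, and 1672 with quantile normalization, 5501 with spike-in scaling, 523 with normexp, 1702 after the filter and 3620 to 10233 leaving out 1 array. In ST7 against GFP limma called 55534, and 28195 without scaling, 35276 with quantile normalization, 14303 with spike-in scaling and 27868 after the filter (fewer probes tested), with 52537 to 55989 leaving out 1 array. The fold rule called 54978 there, and in the same order 29942, 36609, 29337 and 27083, with 54723 to 55850 leaving out 1 array. In ST7 against LT7 limma called 55574, and 36322, 35001, 8844 and 28294, with 53933 to 54896 leaving out 1 array. The cause of these changes was not tested.

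With the replicate number as a block, 0 of the 18 probes were called in LT7, 17 in ST7 against GFP and 17 in ST7 against LT7, and 0 of all probes in LT7 (16289 at an unadjusted p under 0.05). Deviations of samples with the same number, taken over all probes, correlated at 0.078, 0.035 and -0.023. Dim probes are among them, and whether samples with the same number were handled together was not tested. Where 1 array stood for a group, it was taken to vary as the other groups did. The 7 probes not well above background in ST7 have only a bound there.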
